A study of Rattus norvegicus with 12 samples.

Results

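Intermediate filament genes of cultured rat Sertoli cells were examined in 8 genes: Vim, Nes, Krt8, Krt18, Krt19, Lmna, Lmnb1 and Lmnb2. The member probe sets were those of the gene array's main category whose annotation carries 1 gene symbol, equal to one of these names, with letter case ignored. This gave 7 of 27342 main probe sets, for 6 of the 8 genes, with 2 for Krt8 and 1 each for Vim, Krt19, Lmna, Lmnb1 and Lmnb2. The Nes probe set lists a second, predicted symbol, while its RefSeq accession and its other transcripts are those of nestin, so it is described beside them and makes 8 tested probe sets. Krt18 has no such probe set. Its RefSeq transcript is matched by 1 probe set of the unmapped category, whose values are given without a test, and by 2 main probe sets of other loci that the annotation marks as cross-hybridising with it and that were not used as Krt18.

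Intermediate filaments are rope-like polymers of coiled-coil proteins. Vimentin forms them in mesenchymal cells and in Sertoli cells, where they surround the nucleus and reach the junctions with germ cells. Keratins assemble only as pairs of a type II chain, such as the Krt8 product, with a type I chain, such as the products of Krt18 and Krt19, and mark simple epithelia. In the testis the Krt18 product is known from fetal and immature Sertoli cells. The lamins are the nuclear members of the family and form the meshwork under the inner nuclear membrane.

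The arrays carried RNA of Sertoli cells from 9-day-old rats, cultured in medium with fetal bovine serum and then given 0.1 mM MBP for 24 h, or left as control cultures without it for the same time. The series has 12 arrays, and the gene array used here has 3 MBP and 3 control samples, numbered 1 to 3 in each group. Neither the strain nor the full name of MBP is stated, and nothing says that the samples came from separate animals or isolations, so the p-values below refer to variation among these arrays, part of which may be technical. Values are log2 signals, and a probe set counts as above background on an array where it exceeds the 95th percentile of the intron control probe sets of that array, which lay between 5.67 and 6.20. Median log2 signals of the 6 arrays were 3.84 to 3.89, and 6647 to 8178 main probe sets per array were above background. Signal above background throughout was found for 7 of 23 Sertoli markers, or for 6 if Fshr is set aside, since its bright probe set is annotated with GAPDH transcripts as well. Wt1, Gata4 and Clu were among these, and Sox9 was above background on 5 arrays, whereas Amh, Cldn11, Dhh and Inha were below it on every array. Of 16 measured markers of peritubular myoid cells and fibroblasts, 13 were above background on all 6 arrays. Vimentin is made by these cells too, and in such bulk RNA fewer cells of a type and less RNA per cell cannot be told apart.

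The sequence before the transcription start is shown for Vim, Krt8, Krt18 and Nes, the member genes whose signal was highest in both arrays of sample number 3, and for Lmna, a member above background without that pattern. Each is the 250 bases before the start that the RefSeq-derived table of assembly GRCr8 uses for the gene, 5′ to 3′ on the gene's strand. Capitals mark matches, on either strand, to any of 4 motifs. These were the TATA box, searched with the letters TATAAA, the GC box with the letters GGGCGG, the nuclear factor Y motif with the letters CCAAT, and the AP-1 motif with the letters TGANTCA.
Vim, chr17:81577011-81577260, plus strand: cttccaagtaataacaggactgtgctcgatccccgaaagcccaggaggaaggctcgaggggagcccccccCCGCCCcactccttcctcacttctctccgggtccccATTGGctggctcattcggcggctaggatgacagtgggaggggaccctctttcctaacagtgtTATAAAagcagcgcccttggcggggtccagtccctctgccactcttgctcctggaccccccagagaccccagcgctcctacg
Krt8, chr7:135010340-135010589, minus strand: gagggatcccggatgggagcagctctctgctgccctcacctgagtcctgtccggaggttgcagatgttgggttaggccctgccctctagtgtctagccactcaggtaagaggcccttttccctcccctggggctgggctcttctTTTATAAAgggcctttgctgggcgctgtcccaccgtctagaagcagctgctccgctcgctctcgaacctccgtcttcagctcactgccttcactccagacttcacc
Krt18, chr7:135035918-135036167, plus strand: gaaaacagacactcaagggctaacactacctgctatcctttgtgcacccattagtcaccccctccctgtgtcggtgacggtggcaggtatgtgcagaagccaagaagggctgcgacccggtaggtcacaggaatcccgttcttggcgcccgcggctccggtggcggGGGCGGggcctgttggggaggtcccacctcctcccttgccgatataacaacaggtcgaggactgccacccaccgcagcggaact
Nes, chr2:175736338-175736587, plus strand: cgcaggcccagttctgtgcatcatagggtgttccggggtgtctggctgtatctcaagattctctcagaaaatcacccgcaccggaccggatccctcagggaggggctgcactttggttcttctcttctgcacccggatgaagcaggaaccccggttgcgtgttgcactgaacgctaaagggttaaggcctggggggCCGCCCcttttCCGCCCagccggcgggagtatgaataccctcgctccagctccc
Lmna, chr2:176258236-176258485, minus strand: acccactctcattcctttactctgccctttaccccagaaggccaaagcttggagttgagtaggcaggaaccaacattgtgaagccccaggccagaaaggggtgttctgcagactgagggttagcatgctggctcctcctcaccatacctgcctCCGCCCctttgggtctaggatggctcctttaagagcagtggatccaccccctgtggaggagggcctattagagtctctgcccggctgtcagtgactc
The Vim window held 1 TATA box, 1 GC box and 1 nuclear factor Y motif match. The Krt8 window held 2 TATA box matches, which overlap on opposite strands. The Nes window held 2 GC boxes and the Krt18 and Lmna windows 1 each, and none of the 5 windows matched AP-1. Lmnb1 was also above background without the number 3 pattern. Its window, not shown, held 1 nuclear factor Y motif match and no other, and that of Lmnb2 held none of the 4 motifs. Among windows of the same length before 33469 gene starts, 12.9% held a TATA box match, 30.5% a GC box, 34.0% a nuclear factor Y motif and 6.34% an AP-1 match. These matches describe letters in the windows, and no binding was measured.

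Vim transcripts were abundant and did not differ detectably between MBP and control arrays. The Vim probe set (Ensembl transcript on chromosome 17, 82500858 to 82509377, plus strand, Rnor_5.0) had log2 signals of 12.21, 12.11 and 12.39 in MBP samples 1 to 3, against 12.21, 12.18 and 12.46 in control samples 1 to 3. The groups overlapped, and the highest array of each group was the one numbered 3. The means were 12.24 ± 0.14 in MBP and 12.29 ± 0.16 in control arrays (SD, n = 3 each), a difference of -0.049 (SE 0.11, limma, adjusted p = 1). As a ratio this is 0.967, with a 95% interval of 0.801 to 1.17, so the interval excludes a 2-fold change in either direction. The same held for 97.4% of the probe sets above background on all 6 arrays.

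**Figure D1:**
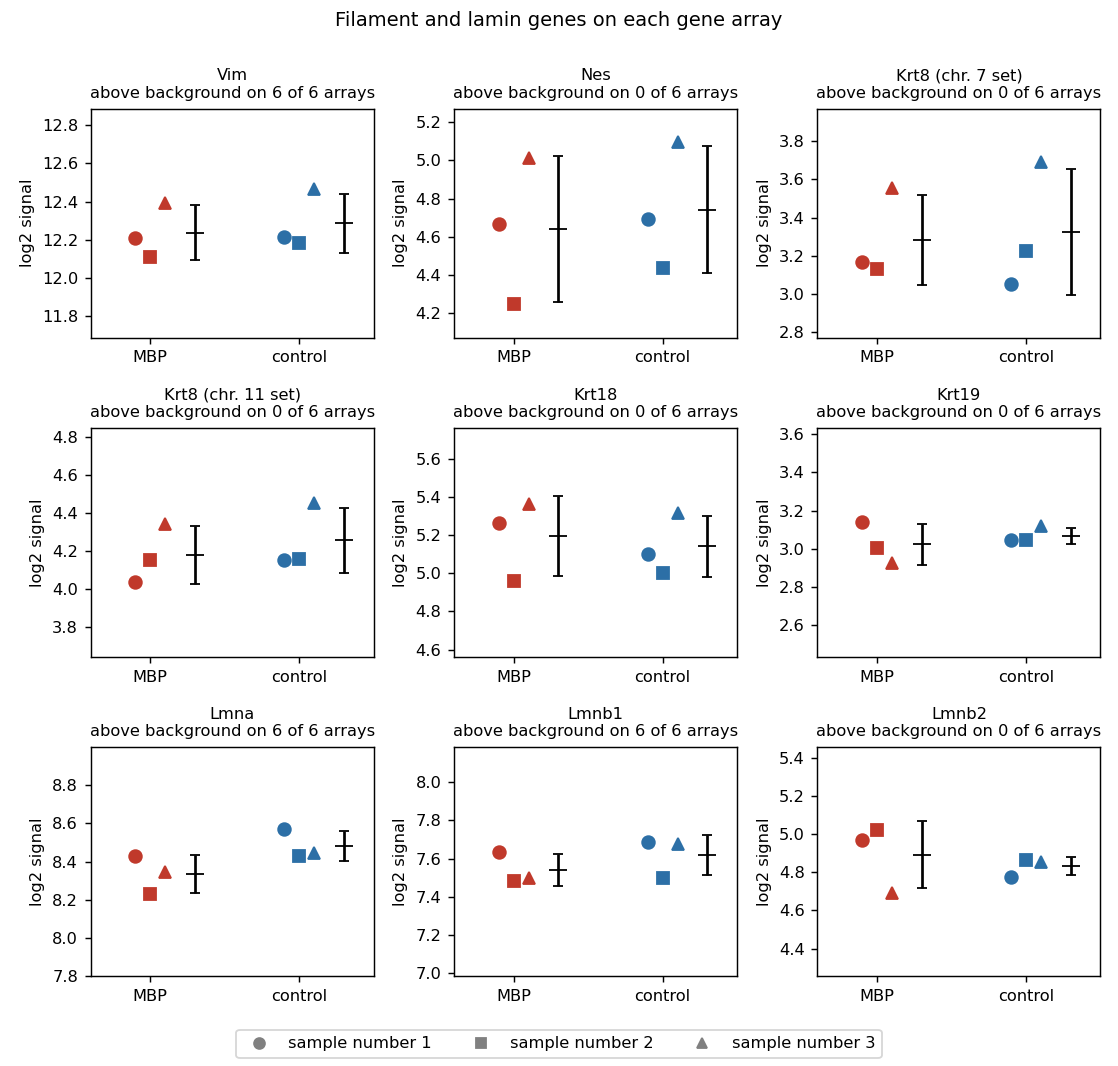
Log2 signal of each of the 9 probe sets on the 6 gene arrays, with MBP arrays (red) left of control arrays (blue), 1 symbol shape per sample number, and bars giving group mean ± SD; every panel spans the same height of log2 units. MBP and control points overlap in every panel, and the number 3 arrays are highest in both groups for Vim, Nes, both Krt8 probe sets and Krt18.

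Nes encodes nestin, a large filament protein of progenitor cells that co-assembles with vimentin. Its probe set (chromosome 2, 206747073 to 206755585, plus strand, Rnor_5.0) had log2 signals of 4.67, 4.25 and 5.01 in MBP samples, against 4.69, 4.43 and 5.10 in control samples. All 6 values lay below background, so no fold is given, and the arrays of a group were further apart than the groups. The difference of the means was -0.099 (SE 0.25, limma, adjusted p = 1).

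The keratin probe sets were dim in both groups. Krt8, the type II chain of simple epithelia, is measured by a probe set placed at the gene on chromosome 7 (transcript 141393012 to 141400521, minus strand, Rnor_5.0), with log2 signals of 3.17, 3.13 and 3.56 in MBP samples, against 3.05, 3.22 and 3.69 in control samples. A second Krt8 probe set is placed on chromosome 11, where it spans 1739 bases on coordinates whose build the annotation does not name, and is annotated with the same chromosome 7 transcript. Its log2 signals were 4.04, 4.15 and 4.34 in MBP samples, against 4.15, 4.16 and 4.45 in control samples. Both probe sets were below background on all 6 arrays and highest in the number 3 array of each group, and their MBP minus control differences were -0.038 (SE 0.20) and -0.078 (SE 0.12, limma, adjusted p = 1 for both).

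Krt19, the smallest type I keratin (chromosome 10, 87848518 to 87853235, minus strand, Rnor_5.0), had log2 signals of 3.14, 3.004 and 2.93 in MBP samples, against 3.04, 3.04 and 3.12 in control samples. These too were below background on all 6 arrays, and the difference was -0.045 (SE 0.070, limma, adjusted p = 1). For Krt18, the unmapped probe set had log2 signals of 5.27, 4.96 and 5.36 in MBP samples, against 5.10, 5.003 and 5.32 in control samples. It was below the 95th percentile of the intron controls on all 6 arrays and above their 90th percentile on all 6. Since every keratin probe set described was below background, a lack of response of these genes is not shown.

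Lmna encodes lamins A and C, the lamins of differentiated cells, and had the mean difference of largest size among the 8 tested probe sets. Its log2 signals (chromosome 2, 207245239 to 207265869, minus strand, Rnor_5.0) were 8.43, 8.23 and 8.35 in MBP samples, against 8.57, 8.43 and 8.44 in control samples. The MBP sample was the lower one in all 3 same-numbered pairs, by -0.14, -0.20 and -0.096, and the groups just overlapped, with MBP sample 1 slightly above control sample 2. The means were 8.34 ± 0.10 in MBP and 8.48 ± 0.078 in control arrays (SD, n = 3 each), a difference of -0.15 (SE 0.075, limma, adjusted p = 1). The ratio was 0.904, with a 95% interval of 0.796 to 1.03. Of all 27342 probe sets, 2921 had a mean difference at least as large in size as that of Lmna.

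Lmnb1 encodes lamin B1, a B-type lamin that stays anchored in the membrane. Its probe set (chromosome 18, 50979875 to 51017524, plus strand, Rnor_5.0) had log2 signals of 7.64, 7.48 and 7.499 in MBP samples, against 7.69, 7.499 and 7.67 in control samples. The groups overlapped, and the difference was -0.081 (SE 0.077, limma, adjusted p = 1), a ratio of 0.945 with a 95% interval of 0.829 to 1.08. Lmnb2, the other B-type lamin gene (transcript on chromosome 7, 11839447 to 11844454, plus strand, Rnor_5.0), was below background on all 6 arrays, at 4.97, 5.02 and 4.69 in MBP samples, against 4.78, 4.86 and 4.85 in control samples. Its difference was 0.061 (SE 0.098, limma, adjusted p = 1), the only positive one of the 8. The Lmnb2 probe set spans 14331 bases on coordinates of an unnamed build, where the transcript given here spans 5008. Its name rests on the gene symbol and not on a RefSeq accession, so the dim signal is that of the probe set as annotated.

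Whether the 2 bright lamin genes changed unequally was asked with their difference within each array, which shows unequal change only. Lmnb1 minus Lmna was -0.79, -0.75 and -0.85 in MBP samples, against -0.89, -0.93 and -0.77 in control samples. The mean moved by 0.064 with MBP (two-sided exact permutation test, p = 0.30, where 3 against 3 arrays cannot go below 0.10). A difference of this size was not separable from the spread between arrays.

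Set side by side, 7 of the 8 tested probe sets had a lower mean in MBP than in control arrays, where 53.4% of all main probe sets and 68.6% of those above background on all 6 arrays did. None of the 8 had groups that did not overlap, against 3.43% of main probe sets. Vim, Nes, Lmna, Lmnb1 and the chromosome 11 probe set of Krt8 were lower in MBP in all 3 same-numbered pairs, a pattern seen in 12.3% of main probe sets and in 21.7% of those above background. Of these 5, Vim, Lmna and Lmnb1 are above background. None of the 8 was higher in MBP in all 3 pairs, against 9.08% of main probe sets. No member passed the test, nor did any main probe set (0.0%; limma, smallest adjusted p = 1). Without adjustment, 351 main probe sets were below the 0.05 threshold in limma (1.28%), none of them a member. With sample number as a block, 1255 of the 27342 were, Lmna among them (limma, unadjusted p = 0.038, adjusted p = 0.865). That share is below the 0.05 that the threshold would give if no probe set differed. Median differences of all main probe sets and of those above background were -0.0065 and -0.030.

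**Figure D2:**
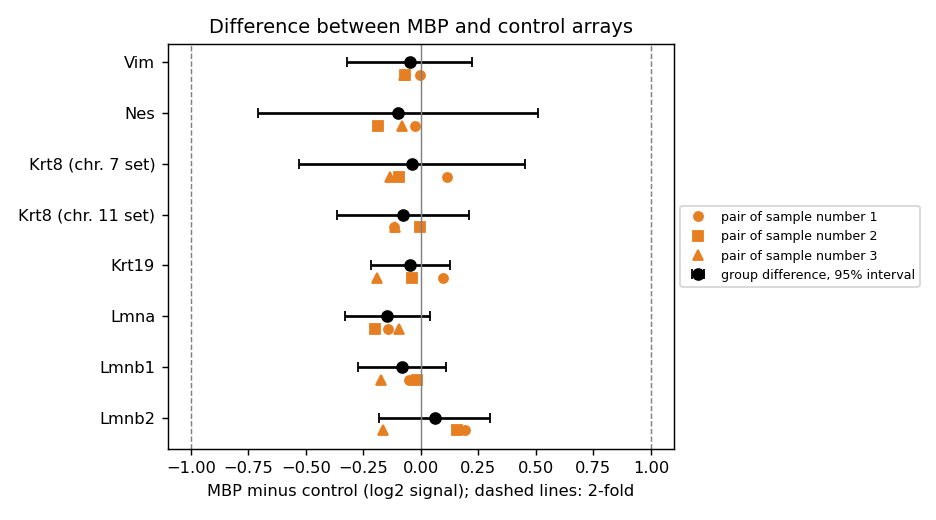
MBP minus control in log2 signal for the 8 tested probe sets, with the group difference and its 95% limma interval (black) and the differences within the 3 same-numbered pairs (orange). The intervals are from the fit without sample number and so include the spread between numbers. All intervals include 0 and end inside the dashed 2-fold lines, and that of Nes, -0.71 to 0.51, is the widest. Nes, Lmnb2, Krt19 and both Krt8 probe sets were below background on all 6 arrays, so a 2-fold change of these genes is not excluded.

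Between sample numbers, Nes and 1 of the Krt8 probe sets differed past the threshold. The test was limma's F test on sample number in the fit of group plus number, and the labels do not say what the numbers stand for. Nes passed it, with mean log2 signals of 4.68, 4.34 and 5.05 in the pairs of numbers 1, 2 and 3 (adjusted p = 0.0179). The chromosome 7 probe set of Krt8 passed as well, at 3.11, 3.18 and 3.62 (adjusted p = 0.0446). These are 2 of 8 probe sets, where 9.62% of all main probe sets passed, 24.1% of those above background on all 6 arrays and 5.24% of the rest. Both lay below background, and both arrays of number 3 stood above the other 4.

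The other Krt8 probe set showed the same order, at 4.10, 4.16 and 4.40, and missed the threshold (limma, adjusted p = 0.0848). Vim also had its 2 highest arrays in number 3, at pair means of 12.21, 12.14 and 12.43 (limma, adjusted p = 0.0856). Fitted on the 6341 probe sets above background alone, Vim passed (adjusted p = 0.00871), as did 63.9% of the probe sets in that fit, and it passed with a trended, robust variance prior (adjusted p = 0.00832). Lmna and Lmnb1 did not pass, with pair means of 8.50, 8.33 and 8.40 and of 7.66, 7.49 and 7.59 (limma, adjusted p = 0.284 and 0.343). Krt19 and Lmnb2 had adjusted limma p-values of 0.810 and 0.566. Number 3 had the highest pair mean for 4 of the 8 probe sets, against 33.3% of main probe sets and 36.3% of those above background.

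These calls between numbers rest on all 6 arrays. Without any 1 of them the fit has 1 residual degree of freedom and called no main probe set (limma, smallest adjusted p = 0.137). Both number 3 arrays also had the fewest probe sets above background, 6661 in the MBP and 6647 in the control array, against 7568 to 8178 in the other 4. Their background cutoffs were the highest, 6.18 (MBP) and 6.20 (control), against 5.67 to 5.88 in the other 4. Their median log2 signals, 3.89 and 3.88, lay within the range of the other 4. The part of these counts and cutoffs in the differences between numbers was not tested.

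**Figure D3:**
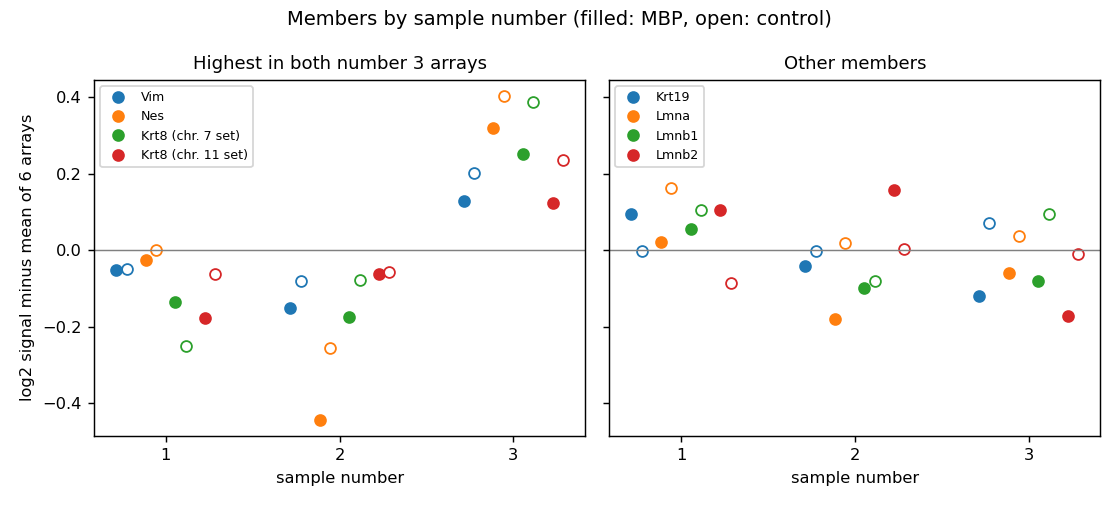
Log2 signal of the 8 tested probe sets minus their own mean over the 6 arrays, by sample number, with MBP arrays filled and control arrays open. In the left panel all number 3 points of Vim, Nes and both Krt8 probe sets lie above 0, while in the right panel the number 3 points of Krt19, Lmna and Lmnb1 straddle 0 and both of Lmnb2 lie below it.

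Other filament and lamina genes were taken from 6 lists, and none of their members passed the test between MBP and control. Of all main probe sets 53.4% had a lower mean in MBP, and of those above background on all 6 arrays 68.6%. Of 8 other vimentin-class and neuronal filament genes 6 were higher and 2 lower in MBP (median difference 0.046), and 1, Des, was above background on all 6 arrays. Des, which encodes desmin, the filament protein of muscle cells, had log2 signals of 7.61, 8.71 and 9.89 in MBP samples, against 7.84, 8.85 and 9.93 in control samples. Its values differed far more between sample numbers than between groups, and the MBP minus control difference was -0.13 (SE 0.74). Of 28 other keratin genes measured 14 were higher and 14 lower (median 0.0045, but -0.021 with median centring and -0.013 with quantile normalization), with only Krt7, the type II partner of simple and ductal epithelia, above background on all 6 arrays. Krt7 had log2 signals of 6.98, 6.87 and 7.75 in MBP samples, against 6.98, 6.74 and 7.59 in control samples.

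Of 18 genes of filament linkers and desmosomes 7 were higher and 11 lower (median -0.028, but -0.14 to 0.064 with arrays left out). Of the 18, 7 were above background. The 2 of smallest p among those were Plec, whose product plectin ties filaments to junctions and to actin, at means of 7.58 in MBP and 7.69 in control arrays, and Epb41l1, at 6.31 in MBP and 6.33 in control arrays. Of 23 nuclear envelope and lamin-binding genes 7 were higher and 16 lower (median -0.012, but -0.069 to 0.015 with arrays left out). Of the 23, 12 were above background. Sun2, which spans the inner nuclear membrane and binds lamin A, had means of 6.47 ± 0.082 in MBP and 6.64 ± 0.14 in control arrays (SD, n = 3 each). Banf1, a chromatin-binding partner of the lamina, had 7.76 ± 0.18 in MBP and 7.97 ± 0.13 in control arrays. The differences, -0.17 for Sun2 and -0.21 for Banf1, did not pass (limma, adjusted p = 1 for both).

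Of 5 measured lamin processing enzymes 3 were higher and 2 lower (median 0.013, but -0.012 with median centring). Icmt, which methylates the lamin tail, had means of 6.74 in MBP and 6.68 in control arrays. Zmpste24, the protease that matures prelamin A, had 9.03 in MBP and 8.96 in control arrays. Of 14 filament kinases and chaperones 3 were higher and 11 lower (median -0.016, but 0.0044 with quantile normalization). Cdk1, which phosphorylates lamins and vimentin in mitosis, had 7.499 in MBP and 7.66 in control arrays, and the kinase gene Prkca 6.82 in MBP and 6.71 in control arrays.

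**Figure D4:**
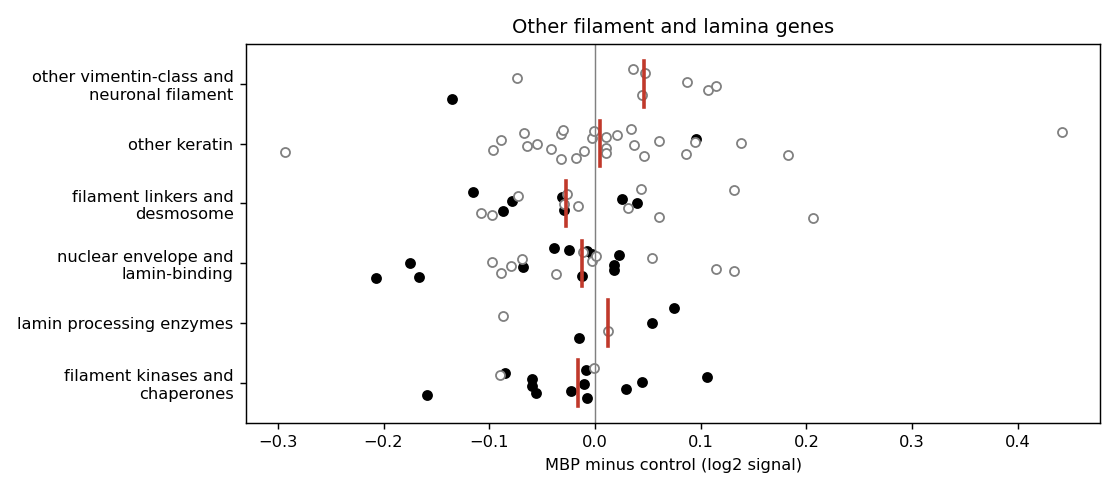
MBP minus control in log2 signal for each gene of the 6 lists, with filled points above background on all 6 arrays, open points below it on at least 1, and a red bar at the list's median. List medians lie between -0.028 and 0.046, and the 2 points furthest from 0, both keratins, are open.

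Between sample numbers, genes in 5 of these 6 lists passed the test. Des passed (limma F test, adjusted p = 0.0037), with pair means of 7.72, 8.78 and 9.91 in numbers 1, 2 and 3, and so did Krt7 at 6.98, 6.80 and 7.67 (adjusted p = 0.0121). These were the only passing genes of their lists, 1 of 8 and 1 of 28, where 9.62% of all main probe sets passed. Of the 18 linker and desmosome genes 6 passed, against the same 9.62%. Of these 6, 5 were among the 7 above background, where 24.1% of all probe sets above background passed. Pkp2, a plakophilin of the desmosome plaque, had pair means of 7.21, 6.28 and 8.29 (limma, adjusted p = 0.00509), and Ktn1, the endoplasmic reticulum protein kinectin, 7.19, 6.86 and 7.72 (adjusted p = 0.0127). In each of Krt7, Pkp2 and Ktn1 number 3 was highest and number 2 lowest, the order that Vim and Nes had.

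Of the 23 nuclear envelope genes 5 passed between numbers, where 9.62% of all main probe sets did, and of the 12 above background 4 passed, against 24.1%. Among them was Tpr, of the nuclear pore basket, at 7.897, 7.42 and 8.36 (limma, adjusted p = 0.0128). Emd, which encodes the lamin-binding protein emerin, passed at 7.69, 8.09 and 8.54 (limma, adjusted p = 0.0133). None of the 5 lamin processing enzymes passed, with Icmt at 6.66, 6.82 and 6.66 and Zmpste24 at 9.12, 8.90 and 8.96. Of the 14 kinases and chaperones 4 passed, all among the 12 above background, against the same 9.62% and 24.1%. They included the actomyosin kinases Rock1 at 6.997, 6.56 and 7.37 and Rock2 at 8.61, 8.32 and 9.18 (limma, adjusted p = 0.0175 and 0.0165).

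Markers of other cells were set against the same shares, 9.62% of all main probe sets and 24.1% of those above background. Of the 16 myoid and fibroblast markers, which include Des, 12 passed the same test and 10 of these were among the 13 above background. The mean log2 signal of that list was 8.39 to 8.999 in MBP and 8.43 to 9.02 in control arrays, and 8.41, 8.46 and 9.01 in numbers 1, 2 and 3. The smooth muscle genes Actg2, at 7.93, 8.48 and 10.45, and Myh11, at 7.18, 6.85 and 9.13, were highest in number 3, whereas Dcn, which encodes a matrix proteoglycan of fibroblasts, was lowest there, at 11.10, 11.26 and 10.56. These 3 were chosen after their values were seen. Of 23 Sertoli markers 5 passed (list mean 5.51, 5.56 and 5.59, with Fshr included), and 3 of these were among the 7 above background. Those 7 are 6 without Fshr, which did not pass. Of the 5, Sox9, Clu and Tjp1 were highest in number 3, whereas Kitlg and Ctsl were lowest there. Of 10 mesothelial and rete epithelial markers 3 passed, and of 8 macrophage and leukocyte markers 2. Each of these 2 lists had 1 marker above background, which passed. The mesothelial and rete one is Krt7, already counted among the keratins. The leukocyte one is Cd14, which was lowest in number 3, at 7.90, 8.01 and 7.43. None of 8 Leydig, 8 germ or 5 endothelial markers passed. The part of these markers in the differences of Vim, Nes and Krt8 between numbers was not tested.

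**Figure D5:**
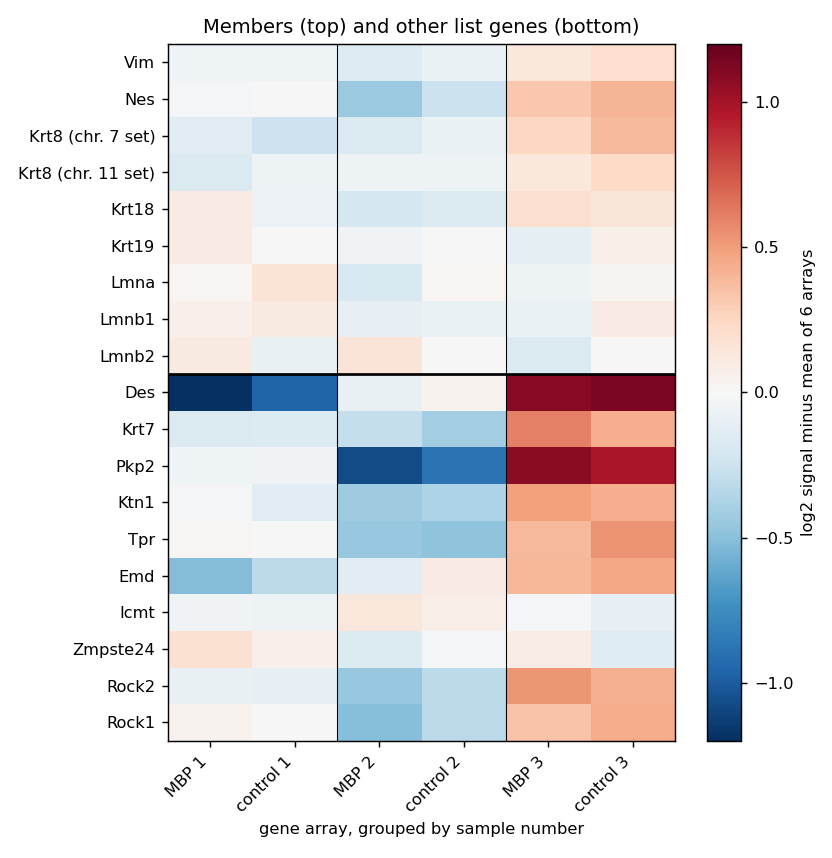
Log2 signal minus the mean over the 6 arrays (colour, red higher and blue lower) for the 9 member probe sets (above the line) and the list genes named for the test between sample numbers (below it), with columns grouped by number and the MBP array left of its control. Within each number the MBP and control columns look alike, and Des and Pkp2 have the deepest colours.

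Among 5012 other genes above background with 1 symbol, the 2 whose log2 profile over the 6 arrays was most like each bright member were found by Pearson's r, as a description of 6 arrays that share numbers in pairs. For Vim these were Grn, which encodes the lysosomal protein progranulin (r = 0.999), and Zc3h11a (r = 0.997). Grn ran over 8.73, 8.55 and 9.07 in MBP samples, against 8.71, 8.68 and 9.18 in control samples, with a range of 0.63 where Vim had 0.35. For Lmna (range 0.34) they were Klhdc2 (r = 0.995, range 0.31) and Xpr1 (r = 0.983, range 0.18). For Lmnb1 (range 0.20) they were Ncapd2, which encodes a subunit of condensin (r = 0.980, range 0.41), and Vars1, the valyl-tRNA synthetase gene (r = 0.971, range 0.11). These r were picked as the largest of 5012 for each member, so their size is partly due to that choice, and they were not tested.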

How the data were processed

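The gene array values are log2 signals that the authors deposited as 1 value per probe set and array. Per the submitters' processing notes MAS5 was among the tools, though neither its role nor its version is stated, and how the values were normalized is otherwise not given in the sources used here. Column quartiles were nearly alike, so the arrays were taken as normalized to each other. In the authors' deposited annotation table, columns other than gene symbols, categories, transcripts and positions (6 columns of signal, named unlike any sample) were not used, and the microRNA arrays were not analysed here. Symbols other than the members' own were updated through unversioned RefSeq accessions not marked as cross-hybridising, then by symbol or synonym, in a table of assembly GRCr8, which named 16179 and 4700 of 27342 main probe sets, and 1100 with several symbols and 5363 with none were not named. The other categories were left out of the fits.

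Main fits were made with lmFit and eBayes of limma 3.58.1, under R 4.3.3, on the log2 values of all main probe sets, MBP minus control without a block, with Benjamini-Hochberg adjustment over all of them and a threshold of 0.05. The F test on sample number came from the fit of group plus number. Both were also run on simulated data. The simulated noise was independent between arrays and sized by the fit with sample number. It therefore does not show how the MBP test without a block performs on these arrays. The exact permutation test used scipy 1.17.1. Deviations of same-numbered MBP and control samples from their group means correlated across probe sets at 0.567, 0.603 and 0.779, against -0.535 to 0.048 for different numbers, so the numbers pair the samples; the labels give only the number. Precision here is that of 3 arrays per group in a fit without the sample number, so its intervals include the spread between numbers. The block lowered the standard error of 7 of the 8 tested probe sets, all but Krt19. It went from 0.25 to 0.056 for Nes and from 0.075 to 0.051 for Lmna.

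All members are named. Of each list, the 2 genes of smallest p in each test are named, among those above background on all 6 arrays where there are any, and a gene with several probe sets is represented by the one of highest mean. Members and lists were chosen with earlier results of these data known. Of the listed names, 15 had no probe set of their own and are not counted as measured. A planned difference of Krt8 and Krt18 within an array was not computed, since Krt18 has no main probe set. Alternatives tried were the replicate block, median centring, quantile normalization, only probe sets above background, a trended and robust prior, other background percentiles and leaving out arrays.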

Additional observations from a re-analysis of the deposited data

How the results depend on the processing

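No member and no list gene passed the test between MBP and control under any alternative run, nor did any other main probe set. With the replicate number as a block, 1255 probe sets had an unadjusted limma p under 0.05 in place of 351, and the smallest adjusted p was 0.865. The 1255 are of 27342 main probe sets, a share below the 0.05 that the threshold would give if no probe set differed. Among them were 1 member of the 8 tested, Lmna, and 6 list genes, in place of 0 and 1. The 6 come from lists with 8, 28, 18, 23, 5 and 14 measured genes. The Lmna difference of -0.15 had a 95% interval of -0.28 to -0.012 (limma, adjusted p = 0.865). The block changed no call. The within-array difference of the 2 lamins gave 0.064 with the pairing too (two-sided exact test, p = 0.50, where 3 pairs cannot go below 0.25), and 0.031 to 0.11 with single arrays left out. Median centring, quantile normalization and the trended prior turned the sign of none of the differences of single genes named, and neither did the filter on background for those it keeps, which leaves out Nes, Lmnb2, Krt19 and both Krt8 probe sets. They did turn medians of lists: the vimentin-class median of 0.046 was -0.13 above background, where Des alone is left, the keratin median of 0.0045 was -0.021 with centring and -0.013 with quantile normalization, the lamin processing median of 0.013 was -0.012 with centring, and the kinase median of -0.016 was 0.0044 with quantile normalization. Leaving out 1 array, or both arrays of a number, did turn some signs. List medians then ran from -0.14 to 0.064 for linkers and desmosomes, -0.069 to 0.015 for the nuclear envelope and -0.017 to 0.030 for keratins. For lamin processing enzymes they ran from -0.026 to 0.077, and for kinases and chaperones from -0.092 to 0.054. The vimentin-class median stayed between 0.028 and 0.088. Without single arrays the differences ran from -0.13 to 0.040 for Vim, -0.28 to 0.098 for Nes, -0.17 to 0.15 and -0.16 to 0.020 for the chromosome 7 and 11 probe sets of Krt8, -0.10 to 0.0037 for Krt19, -0.0031 to 0.16 for Lmnb2, -0.71 to 0.43 for Des, -0.18 to 0.34 for Krt7, -0.23 to 0.052 for Plec, -0.045 to 0.00099 for Epb41l1 and -0.0054 to 0.16 for Prkca. Without both arrays of a number, in the blocked fit, they ran from -0.12 to 0.0096 for the chromosome 7 probe set of Krt8, -0.12 to 0.028 for Krt19, -0.0038 to 0.17 for Lmnb2, -0.060 to 0.019 for Epb41l1 and -0.0094 to 0.18 for Zmpste24. Over both kinds, Lmna stayed between -0.19 and -0.092 and Lmnb1 between -0.14 and -0.034, Sun2 between -0.24 and -0.11, Banf1 between -0.28 and -0.11, Cdk1 between -0.25 and -0.021 and Icmt between 0.0017 and 0.11. Between sample numbers, 2630 main probe sets passed, against 4238 with the trended, robust prior and 4052 of 6341 when fitted above background, where 1 of 3 members passed; the cause was not tested. Without any single array, an alternative chosen after seeing the data, 0 tested probe sets of the members and 0 of all passed, with 1 residual degree of freedom. With the 90th and the 99th percentile of the intron controls as background, 3 and 1 of the 8 tested probe sets were above it on all 6 arrays, where the 95th gave 3; the untested Krt18 probe set was also above the 90th on all 6. Signal near background limits what can be said of Nes, Lmnb2 and the keratins.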
